A study of Rattus norvegicus with 29 samples.

Results

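The comparison of METH with saline in the dentate gyrus (DG) rested on 8 of the 29 ATAC-seq libraries of the series, chosen as every library labelled DG: 4 from METH-treated and 4 from saline-treated rats. All animals were adult male Sprague-Dawley rats. METH, (+)-methamphetamine hydrochloride, was injected intraperitoneally at 10 mg/kg in 4 injections spaced 2 h apart, and the saline rats received the vehicle on the same schedule. Tissue was taken the following day, and libraries were made from frozen pieces with the omni-ATAC method, in which the Tn5 transposase cuts accessible DNA. The other 21 libraries came from the nucleus accumbens (NAc), the CA fields of Ammon's horn (CA) and the subventricular zone (SVZ) of METH and saline rats, and were used here to fix the level of each open chromatin region (OCR), to class OCRs by their difference between CA and NAc, to set the METH effect in CA beside that in DG, and to share one estimate of the replicate spread. By the numbers in the peak names, read as animal numbers, all of these came from the same animals as the DG libraries. The fit nevertheless treated all libraries as independent.

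The DG is the entry gate of the hippocampal circuit. Its densely packed granule cells receive the cortical input and project to the CA, and it is one of the few places where neurons are still born in the adult brain. ATAC-seq counts how often the transposase cut within a region, so that a higher value marks a region that was open in more cells or more often. Because whole pieces of tissue were measured, fewer cells of a type and less opening per cell cannot be told apart. The OCRs carry no gene names, and the DG label was therefore not checked against marker genes.

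Each OCR is an interval of the rat genome build rn6 in which a peak was called in at least some library, and the count table holds 98237 of them with a median width of 662 bp. The OCR counts of the 8 DG libraries summed to between 9.20 M and 14.3 M (M, mega). Values are given in CPM, an OCR's count scaled to a common library size with upper-quartile factors, and differences as log2 fold changes of METH over saline. A number inside the peak names differed for each of the 8 libraries, as would an animal number. The p-values of single OCRs rest on the spread between libraries within groups, pooled over all 29 libraries. Those of library values rest on the 8 DG libraries. The peak names also carried a tag that placed replicates 1 and 2 of both groups in a first set and replicates 3 and 4 in a second set. No source used here states what this tag marks.

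Without RUVr factors, no single OCR passed the study's thresholds for a differentially accessible region (DAR), a fold change above 1.5 with a false discovery rate (FDR) under 0.001, so that 0% of the 98237 OCRs were called by edgeR's quasi-likelihood test. The lowest FDR, adjusted by Benjamini-Hochberg over all OCRs, was 0.493 with all 29 libraries and 0.697 in a fit of the DG libraries alone. Values below are from the fit of all 29 libraries unless another is named. At an unadjusted p under 0.05, 6167 OCRs (6.28%) were less accessible and 3504 (3.57%) more accessible in METH, and DESeq2's Wald test, which also called no DAR, gave 4312 less and 11508 more accessible OCRs. Estimated folds were larger than these calls convey: 21.6% of OCRs were estimated more than 1.5-fold lower and 9.34% more than 1.5-fold higher in METH, beside a median standard error of 0.39 on the log2 scale. The CPM of the 4 METH libraries lay below all 4 saline libraries in 1978 OCRs (2.01%) and above all 4 in 515 OCRs (0.524%).

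The DAR count depended on how replicate spread was modelled. The study normalized its counts with RUVr, which removes components of the residuals of a first fit, and its methods do not state how many, so that the count without them is not the outcome of the study's procedure. With 5 RUVr factors as covariates, 2394 OCRs were called less and 2192 more accessible, 4586 in all, whereas 1 factor gave 0 DARs and, at an FDR under 0.05 with no fold limit, 4077 less and 3838 more accessible OCRs. Leaving out METH replicate 3 raised the OCRs at an unadjusted p under 0.05 to 19400 less and 11250 more accessible, and leaving out METH replicate 1 reduced them to 2378 and 1035, with 0 DARs in both fits.

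The direction of the overall balance depended on the scaling. The median log2 fold change of all OCRs was -0.15 with upper-quartile scaling, -0.09 with TMM, -0.01 with DESeq2 size factors and -0.25 with total counts. Of the OCRs at an unadjusted p under 0.05, 63.8% were less accessible with upper-quartile scaling, 41.8% with TMM, 26.1% with DESeq2 size factors, 34.2% with loess offsets and 75.3% with total counts. The values below therefore describe how classes of OCRs differed from each other, and from the median of all OCRs, rather than a loss or a gain of accessibility over the whole genome.

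The level of an OCR, taken as its mean log2 CPM over the 21 libraries from outside the DG and cut into quintiles, ordered the differences more strongly than width or clustering did. The median log2 fold change was -0.46 in the lowest quintile, -0.25 in the second, -0.19 in the third, -0.10 in the fourth and 0.16 in the highest. In the lowest quintile, below 2.43 CPM, 40.1% of the 19648 OCRs were estimated more than 1.5-fold lower and 5.63% more than 1.5-fold higher. In the highest quintile, above 10.02 CPM, 4.06% were estimated more than 1.5-fold lower and 12.3% more than 1.5-fold higher. Low estimates were therefore most frequent among weakly open OCRs, and with this scaling the most strongly open quintile was the only one with a median above 0. With DESeq2 size factors the same medians ran from -0.34 to 0.31, and the gap between the lowest and the highest quintile, -0.61 as reported, lay between -0.65 and -0.56 under TMM, DESeq2 size factors and total counts. It was -0.07 with loess offsets, which fit each library's trend with level and remove it by construction. Within the first set of libraries alone the gap was -0.74 and within the second -0.50. Single libraries moved it more than the scaling did: it was -0.34 without METH replicate 1, -0.40 without saline replicate 3 and -1.22 without METH replicate 3, and the median of the lowest quintile ran from -0.27 without METH replicate 1 to -0.95 without METH replicate 3.

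**Figure D1:**
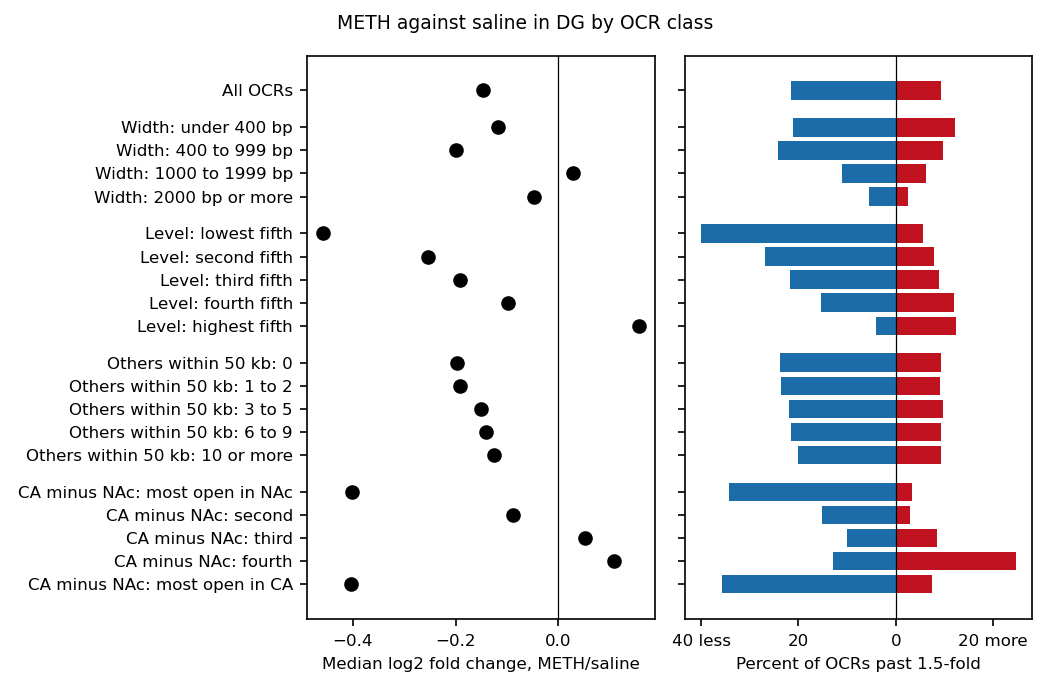
Left, median log2 fold change of METH over saline in DG for all OCRs and for classes of OCR width, level outside DG, number of other OCRs within 50 kb and CA minus NAc difference; right, percent of the OCRs of each class estimated more than 1.5-fold less (blue) or more (red) accessible in METH. The level classes run from -0.46 in the lowest to 0.16 in the highest quintile, and the clustering classes span only -0.20 to -0.13.

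Calls at an unadjusted p under 0.05 followed the same order on the side of the gains and less so on the side of the losses. The highest quintile held 39.8% of all OCRs that were more accessible and 8.61% of those that were less accessible. The lowest quintile held 4.82% of the former and 22.1% of the latter. Within the lowest quintile 6.94% of OCRs were less accessible at this threshold, which is close to the 6.28% of all OCRs although the estimated folds there were larger, beside a median standard error of 0.60 compared with 0.24 in the highest quintile.

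The quintile medians of the single libraries showed that the order was not shared by all 4 METH libraries. Against the saline mean, the lowest quintile was at -1.05 in METH replicate 1, -0.29 in replicate 2, 0.35 in replicate 3 and -0.93 in replicate 4. The highest quintile was at 0.42, 0.32, -0.23 and 0.10 in the same libraries. METH replicates 1 and 4 thus had a steep order, replicate 2 a shallow one, and replicate 3 the opposite one. The saline libraries were not alike either: against the mean of the other 3, saline replicate 2 stood at -0.77 in the lowest and 0.35 in the highest quintile, whereas the other 3 lay between 0.18 and 0.47 in the lowest. In its order by level, saline replicate 2 was steeper than METH replicate 2, and the groups overlapped.

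**Figure D2:**
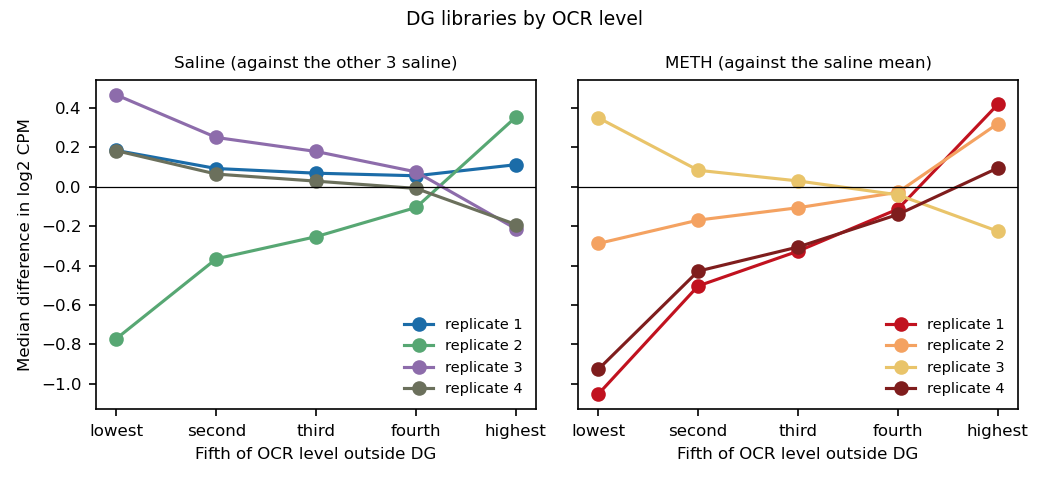
Median difference in log2 CPM of each DG library by quintile of OCR level outside DG, for saline libraries against the other 3 saline libraries (left) and for METH libraries against the saline mean (right). METH replicates 1 and 4 reach -1.05 and -0.93 in the lowest quintile, METH replicate 3 lies at 0.35, and saline replicate 2 lies at -0.77.

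The same was visible in the share of the OCR counts that fell into each quintile. The highest quintile took 66.7%, 72.8%, 61.9% and 63.1% of the counts in saline replicates 1 to 4, and 76.9%, 73.2%, 61.4% and 72.7% in METH replicates 1 to 4. The mean was 66.1% ± 4.90 (SD, n = 4) in saline and 71.1% ± 6.71 (SD, n = 4) in METH, a difference smaller than the spread within METH (exact permutation test, two-sided, p = 0.371; adjusted over 10 library values, p = 0.686). The lowest quintile took 4.96%, 3.10%, 6.04% and 5.72% in saline and 1.82%, 3.16%, 6.68% and 2.27% in METH. The smallest shares of all 8 libraries were those of METH replicates 1 and 4, and the largest was that of METH replicate 3.

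Width carried less of the difference than level. The 71938 OCRs from 400 bp to under 1 kb had a median log2 fold change of -0.20 and the 9736 OCRs under 400 bp one of -0.12. It was 0.03 for the 16139 OCRs from 1 kb to under 2 kb and -0.05 for the 424 OCRs of 2 kb or more. The widest OCRs had the fewest large estimates, with 5.42% more than 1.5-fold lower and 2.59% more than 1.5-fold higher, and at an unadjusted p under 0.05, 31 of the 424 were less and 4 more accessible. These signs depend on the scaling: with DESeq2 size factors the class under 400 bp was at 0.03.

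Wide OCRs are also strongly open ones by this level, so width was set beside level. Level was not scaled to width, and a wider OCR can collect more counts. The median width was 529 bp in the lowest and 1053 bp in the highest quintile of level. At a like level a wider OCR holds fewer counts per bp, and whether this bears on the values below was not tested. Within the lowest quintile of level the median was -0.38 under 400 bp, -0.47 from 400 bp to under 1 kb and -0.54 from 1 kb to under 2 kb. Within the fourth quintile these classes stood at 0.14, -0.07 and -0.26, and within the highest at 0.18, 0.21 and 0.13, with the OCRs of 2 kb or more at -0.04. At a like level, therefore, wider OCRs had lower medians than narrow ones outside the highest quintile, which was not the order without matching. After the median of OCRs of the same level was subtracted in each library, OCRs under 400 bp stood at 0.39, 0.14, -0.17 and 0.38 in METH replicates 1 to 4 and at -0.14, 0.26, -0.09 and -0.06 in saline replicates 1 to 4. The OCRs of 2 kb or more stood at -0.34, -0.21, 0.07 and -0.33 in METH and at 0.01, -0.22, 0.10 and 0.07 in saline. As before, METH replicates 1 and 4 lay together at one end, and saline replicate 2 lay on the same side as METH replicate 2.

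Clustering, the number of other OCRs with a midpoint within 50 kb, hardly separated OCRs. The median log2 fold change was -0.20 for the 3977 OCRs with no other OCR nearby, -0.19 with 1 to 2, -0.15 with 3 to 5, -0.14 with 6 to 9 and -0.13 for the 29398 OCRs with 10 or more. Within the lowest quintile of level the order turned, from -0.36 for isolated OCRs to -0.50 in the densest class, and within the highest quintile isolated and densest OCRs both stood at 0.16. The densest class, 29.9% of all OCRs, held 36.4% of those less accessible and 31.5% of those more accessible at an unadjusted p under 0.05. Isolated OCRs, 4.05% of all, held 2.29% of the less accessible ones. Isolated OCRs were at -0.61, -0.01, 0.23 and -0.52 in METH replicates 1 to 4.

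Neighbouring OCRs had related estimates. The correlation of log2 fold changes across pairs of adjacent OCRs was 0.44 over 11755 pairs whose midpoints lay within 2 kb, 0.33 at 2 to 5 kb, 0.28 at 5 to 10 kb, 0.22 at 10 to 50 kb, 0.11 at 50 to 200 kb and 0.03 over 1908 pairs farther apart. The same sign was found in 67.5% of the nearest pairs and 56.3% of the farthest. These pairs share all 8 libraries, so that a library that differs as a whole enters each of them. Matching on level left the nearest pairs at 0.42. By chromosome, the median log2 fold change of the autosomes lay between -0.20 and -0.09, and that of the 1262 OCRs of the X chromosome was -0.01.

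A further class was added after the class values had been seen, from libraries outside the DG: the difference in mean log2 CPM between the saline libraries of CA and NAc. The quintile of OCRs most open in NAc had a median log2 fold change of -0.40 in DG, and the next stood at -0.09, 0.05 and 0.11. The quintile most open in CA was again low, at -0.40. The fourth quintile, moderately more open in CA, had 24.7% of its OCRs estimated more than 1.5-fold higher and held 49.6% of all OCRs that were more accessible at an unadjusted p under 0.05, compared with 2.48% in the quintile most open in NAc. Those OCRs of it that were also in the highest quintile of level had the highest median of all combinations with CA minus NAc, at 0.50, with 0.87, 0.53, -0.39 and 0.87 in METH replicates 1 to 4. OCRs most open in CA and in the lowest quintile of level had the lowest, at -0.54, with -1.33, -0.31, 0.44 and -1.26. In both, METH replicates 1 and 4 lay farthest from the saline mean, and METH replicate 3 lay on its other side. Saline replicates 1 to 4, each against the other 3, stood at -0.38, 0.68, -0.14 and -0.03 in the first combination. In the second they stood at 0.14, -0.89, 0.53 and 0.27. In both, saline replicate 2 lay on the side of METH replicates 1 and 4 and beyond METH replicate 2.

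The 4 METH libraries were therefore compared one by one. Across all OCRs, 39.5% lay more than 1.5-fold below the saline mean in METH replicate 1, 17.9% in replicate 2, 13.0% in replicate 3 and 38.3% in replicate 4. More than 1.5-fold above it lay 18.7%, 13.1%, 17.4% and 16.6%. Replicates 1 and 4 stood out by their low OCRs far more than by their high ones. For saline libraries against the other 3, the shares below ran from 7.26% in replicate 3 to 31.8% in replicate 2.

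The deviations of METH replicates 1 and 4 from the saline mean were correlated across the 98237 OCRs with r = 0.82, and with r = 0.80 after matching on level, although they came from different sets by their name tag. METH replicate 2 correlated with them at 0.57 and 0.53. METH replicate 3 correlated with the other METH libraries at -0.32, -0.28 and -0.30. These correlations all share the same 4 saline libraries and describe likeness only. Between the METH libraries themselves, which share nothing, the SD of the log2 CPM difference was 0.63 for replicates 1 and 4, the smallest of the 6 METH pairs, and 1.39 for replicates 1 and 3, the largest. Saline pairs lay between 0.68 and 1.08.

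Counted against the saline range, METH replicate 1 lay below all 4 saline libraries in 36933 OCRs (37.6%) and replicate 4 in 36613 (37.3%). For replicates 2 and 3 these numbers were 17990 (18.3%) and 19641 (20.0%). A library that does not differ from saline would also lie below all 4 in part of the OCRs. Its share was not estimated. By combination, 15905 OCRs (16.2%) were below the saline range in replicates 1 and 4 alone and 12045 (12.3%) in replicate 3 alone. In replicates 1, 2 and 4 but not 3 they numbered 8172 (8.32%). Above the saline range, 8517 OCRs (8.67%) were shared by replicates 1, 2 and 4 and 14749 (15.0%) were found in replicate 3 alone. In the lowest quintile of level 53.1% of OCRs were below the saline range in replicate 1 and 10.8% in replicate 3, whereas in the highest quintile the shares were 16.2% and 34.6%. Replicate 3 thus left the saline range about as often as replicate 2, and most of the OCRs where it lay below were not below in any other METH library.

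The first principal component of the 8 DG libraries held 58.9% of the variance of log2 CPM. On it, METH replicates 1 and 4 stood at 242 and 232, METH replicate 2 at 37.3 and METH replicate 3 at -192. Saline replicate 2 stood at 87.1 and the other saline libraries between -157 and -120. The groups overlapped on this component, and it did not separate the 2 sets of the name tag. The OCR counts of METH replicates 1 to 4 summed to 14.3 M, 13.7 M, 9.30 M and 11.2 M. Those of saline replicates 1 to 4 summed to 10.9 M, 12.2 M, 9.20 M and 12.7 M. Whether these sums bear on the component was not tested.

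**Figure D3:**
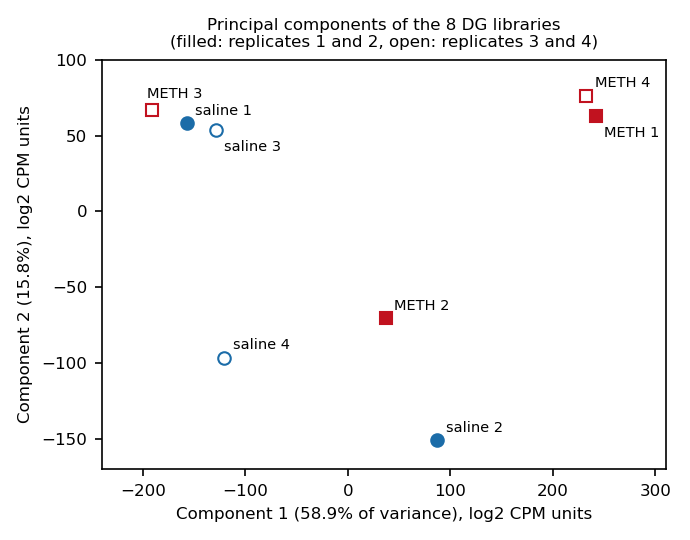
The 8 DG libraries on the first and second principal components of log2 CPM over all OCRs, saline as blue circles and METH as red squares, filled for replicates 1 and 2 and open for replicates 3 and 4. METH replicates 1 and 4 lie together at 242 and 232 on the first component, and METH replicate 3 lies at -192, beyond the 3 saline libraries at -157 to -120.

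The peak lists, which were called in each library on its own, showed the same libraries apart. Saline replicates 1 to 4 had 78207, 69936, 64678 and 86852 peaks, and METH replicates 1 to 4 had 58378, 73126, 83483 and 63363. Of all 8 libraries, METH replicates 1 and 4, with 14.3 M and 11.2 M OCR counts, had the fewest peaks. The means, 74918 ± 9711 in saline and 69588 ± 11106 in METH (SD, n = 4), differed by less than their spread (exact permutation test, two-sided, p = 0.457; adjusted p = 0.686). The median fold enrichment of the peaks was 5.46, 6.15, 4.92 and 5.30 in saline and 6.56, 6.15, 5.52 and 6.95 in METH. It gave the smallest p of the 10 library values, with METH replicates 1 and 4 highest (exact permutation test, two-sided, p = 0.0857; adjusted p = 0.686); 4 against 4 libraries allow no p below 0.0286.

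The shortfall of peaks lay at weakly open OCRs. In the lowest quintile of level a peak was called in 35.5%, 21.8%, 30.0% and 42.0% of OCRs in saline, and in 7.40%, 23.8%, 42.8% and 8.93% in METH. In the highest quintile the shares were 97.6% to 99.0% in saline and 95.7% to 98.6% in METH. METH replicate 1 was below every saline library in each quintile, METH replicate 4 in the lowest, the fourth and the highest, and METH replicate 3 was above every saline library in the lowest. Narrow peaks under 400 bp numbered 28934 in METH replicate 1 and 36421 in replicate 4, compared with 39373 to 51004 in saline.

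**Figure D4:**
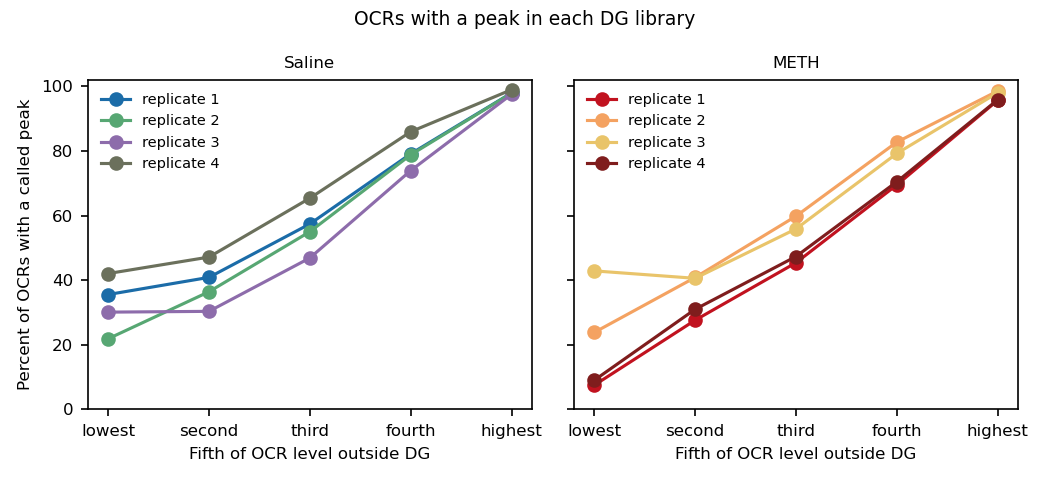
Percent of the OCRs in each quintile of level outside DG that overlap a called peak, by library, for saline (left) and METH (right). In the lowest quintile METH replicates 1 and 4 lie at 7.40% and 8.93%, below the saline libraries at 21.8% to 42.0%, and METH replicate 3 lies at 42.8%.

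Few OCRs had a peak in all 4 libraries of one group and in none of the other. A peak was present in all 8 libraries for 28335 OCRs, in all 4 saline and no METH library for 94, and in all 4 METH and no saline library for 65. With peaks of −log10 q above 5 alone these numbers were 81 and 85, so that the balance between them turned. Of the 94, 78 were 400 bp to under 1 kb wide, as were 50 of the 65, a width that 73.2% of all OCRs had. Of the 94, 24 lay in the lowest and 28 in the second quintile of level, and of the 65, 8 and 36, where each quintile holds 20.0% of all OCRs. With a peak in at least 3 libraries of one group and at most 1 of the other, 5213 OCRs were found on the saline side and 3179 on the METH side, with 1771 of the former and 533 of the latter in the lowest quintile.

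Single OCRs were taken by the smallest p among those whose groups did not overlap, so that all 4 METH libraries lie on one side of saline by choice. Of the 5 less accessible ones, 2 were in the fourth quintile of level and 1 each in the lowest, the third and the highest. The one with the smallest p, at chr16:4977757-4978653, had 23.3, 11.6, 10.0 and 10.0 CPM in saline replicates 1 to 4 and 3.79, 4.22, 5.91 and 5.24 CPM in METH replicates 1 to 4. Its log2 fold change was -1.52 ± 0.30 (SE; unadjusted p = 2.8e-05, edgeR), and -1.14 without saline replicate 1, which stood apart from the other saline libraries. Next came chr1:24844171-24845538, with 10.2, 8.41, 15.9 and 12.0 CPM in saline and 6.11, 3.61, 6.20 and 2.95 CPM in METH. The OCR at chr7:115801083-115801877, in the highest quintile of level, had 23.1, 16.3, 20.0 and 20.3 CPM in saline and 7.92, 9.29, 12.2 and 7.62 CPM in METH (log2 fold change -1.10 ± 0.25 SE), and peaks in all 8 libraries. The other 2, at chr6:25148692-25149127 and chr1:217736033-217736675, had log2 fold changes of -2.24 and -1.64. The one on chromosome 6 had 16, 17, 32 and 38 counts in saline and 3, 8, 4 and 6 in METH, and no peak in any DG library.

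Of the 5 more accessible ones, 4 were in the second quintile of level and 1 in the fourth. The last of these, at chr5:143544300-143545080, had 6.86, 4.39, 5.46 and 5.35 CPM in saline and 9.81, 10.4, 8.76 and 12.7 CPM in METH, a log2 fold change of 0.92 ± 0.24 (SE). The OCR at chr4:141853759-141854473 had 2.29, 1.74, 4.02 and 1.98 CPM in saline and 9.98, 4.65, 6.70 and 7.05 CPM in METH, with a peak in each METH library and in no saline library. The same was found at chr18:65848974-65849628, where METH replicate 4 reached 13.3 CPM and the other 3 lay between 3.18 and 5.16 CPM, beside 0.86 to 2.99 CPM in saline. This OCR had the largest estimate of the 65 with a METH peak only, 1.85, and it was 1.18 without METH replicate 4. The next of the 65, at chr17:7497459-7497801, was at 1.84. The remaining 2, at chr6:147011562-147012170 and chr8:92360727-92361238, stood at 1.88 and 1.77. The one on chromosome 6 had 4, 4, 7 and 4 counts in saline and 18, 22, 13 and 18 in METH, and no peak in any DG library.

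Among OCRs with a peak in all saline libraries only, the largest estimates were -1.96 at chr1:211497383-211497963 and -1.91 at chr6:105488033-105488549. The first had 3.72, 6.58, 4.64 and 8.06 CPM in saline and 0.77, 2.41, 1.97 and 0.76 CPM in METH. Here METH replicates 1 and 4 were the lowest, as they were in the class medians.

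The most strongly open OCR of each width class described the far end of the level scale. Those under 400 bp, from 400 bp to under 1 kb and at 2 kb or more lay side by side on chromosome 1, between positions 11906083 and 11912509. The widest of them, chr1:11909095-11912509, had 772, 1176, 1890 and 1543 CPM in saline and 2279, 1794, 1614 and 2518 CPM in METH, a log2 fold change of 0.61 ± 0.29 (SE; unadjusted p = 0.048, edgeR). The groups overlapped, since METH replicates 2 and 3 lay below saline replicate 3, and with loess offsets the estimate was -0.03. The highest OCR from 1 kb to under 2 kb, chr4:77447556-77448678, had means of 1203 CPM in saline and 1244 CPM in METH, with a log2 fold change of 0.05 ± 0.25 (SE).

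To put names to some OCRs, 637 of them were used that the study pairs with a gene through the orthologous human region, in which a variant associated with a neurological trait lies. Names are human gene symbols, and the pairing is not evidence that the OCR acts on the gene. The 637 OCRs entered without regard to METH, but the gene lists were chosen with earlier results of these data known. Among the 637, 35 were less and 21 more accessible at an unadjusted p under 0.05, beside 6.28% and 3.57% of all OCRs. The median log2 fold change of the 637 was -0.10, and none was a DAR. The same shares of all OCRs stand beside the counts given for the lists below.

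Genes of voltage-gated ion channels, which set the excitability of neurons, had the lowest median of the 6 lists examined, -0.88 over 11 OCRs of 8 genes, and all 11 estimates were below 0. At an unadjusted p under 0.05, 4 of the 11 were less and 0 more accessible. CACNA1I encodes a T-type calcium channel, and its OCR at chr7:121549294-121549901 had 3.43, 7.31, 2.68 and 5.20 CPM in saline and 0.86, 2.58, 1.58 and 1.24 CPM in METH. The groups did not overlap, and the log2 fold change was -1.57 ± 0.43 (SE; unadjusted p = 0.0010, edgeR). The OCR of SCN2A, a sodium channel of axons, had 5.05, 5.21, 5.46 and 4.83 CPM in saline and 1.38, 2.50, 5.02 and 1.14 CPM in METH, so that METH replicate 3 lay at the saline level and the other 3 below it. The OCR of CACNB2, an auxiliary calcium channel subunit, had a log2 fold change of -1.05 ± 0.34 (SE), that of CACNA2D3, another auxiliary subunit, -1.01 ± 0.56 (SE), and one of the OCRs of CACNA1C, the L-type calcium channel, -0.02 ± 0.28 (SE). Second OCRs of CACNA1I and CACNA2D3 stood at -0.97 and -0.05. The median of the list was -1.13, -0.38, 0.07 and -1.32 in METH replicates 1 to 4. It was -0.03, -0.44, 0.12 and 0.34 in saline replicates 1 to 4, each against the other 3, so that the groups overlapped. The median log2 fold change of its OCRs was -0.51 without saline replicate 3 and -1.06 without METH replicate 3.

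Genes of glutamate and GABA receptors and their partners, which serve synaptic signalling, had a median of -0.71 over 9 OCRs. Of these, 8 had estimates below 0, and none reached an unadjusted p under 0.05. GRM7, a presynaptic metabotropic glutamate receptor, had 33.4, 27.1, 27.9 and 31.9 CPM in saline and 14.0, 29.3, 29.5 and 8.48 CPM in METH. GABRB1, a subunit of the GABA-A receptor, had 14.5, 15.3, 17.4 and 12.7 CPM in saline and 3.87, 12.0, 16.4 and 4.29 CPM in METH. In both OCRs METH replicates 1 and 4 lay far below saline, while replicates 2 and 3 lay within or just below the saline range. The OCR of NETO1, an auxiliary subunit of glutamate receptors, behaved alike, with 7.15, 9.14, 4.12 and 7.25 CPM in saline and 1.72, 6.02, 4.23 and 0.76 CPM in METH. The OCR of GRIN2B, a subunit of the NMDA receptor, had a log2 fold change of -0.82 ± 0.42 (SE) and no peak in any DG library. A second OCR of GABRB1 had -0.23 ± 0.37 (SE). The median of the list was -0.38 without METH replicate 4, -0.40 without METH replicate 1 and -1.16 without METH replicate 3.

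Neuronal adhesion and axon guidance genes had a median of -0.19 over 29 OCRs, close to that of all OCRs, with 2 less and 0 more accessible at an unadjusted p under 0.05. CLSTN2, a synaptic adhesion protein, had 3.72, 4.29, 3.30 and 6.74 CPM in saline and 0.77, 2.41, 2.95 and 0.76 CPM in METH (log2 fold change -1.39 ± 0.54 SE), with a peak in all saline libraries and in no METH library. NEGR1, an adhesion protein of the neuronal surface, stood at -1.11 ± 0.44 (SE), and its other OCRs at -0.25 and -0.22. TENM3 and CDH13 stood at -0.58 and -0.69, and CDH2, N-cadherin, at -0.03. The median of the list was -0.07 without METH replicate 1 and -0.28 without saline replicate 2.

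Synaptic signalling and scaffold genes had a median of -0.25 over 26 OCRs, with 2 less and 1 more accessible at an unadjusted p under 0.05. The one with a higher value was ADCY9, an adenylyl cyclase, with 15.7, 27.0, 19.4 and 18.4 CPM in saline and 41.2, 30.9, 17.0 and 51.5 CPM in METH (log2 fold change 0.81 ± 0.33 SE). ADCY5, another adenylyl cyclase, had 16.0, 62.3, 34.5 and 38.7 CPM in saline and 105.4, 68.0, 20.4 and 100.1 CPM in METH (0.96 ± 0.47 SE; unadjusted p = 0.052, edgeR), while a second OCR of ADCY5, in the third quintile of level, stood at -0.36. The strongly open OCRs of both genes were highest in METH replicates 1 and 4 and lowest, among METH libraries, in replicate 3. CAMK1G, a calmodulin-dependent kinase, stood at -1.32, DBN1, an actin-binding protein of dendritic spines, at -0.47, and LRRC4, a postsynaptic adhesion protein, at 0.01. The median of the list was -0.13 without METH replicate 4, -0.15 without saline replicate 3 and -0.34 without METH replicate 3.

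Transcription factors and their partners had a median of 0.14 over 26 OCRs, with 2 less and 1 more accessible at an unadjusted p under 0.05, and their median ranged from -0.01 to 0.24 when single libraries were left out. ST18, a zinc finger factor, had 1.43, 2.28, 3.40 and 2.49 CPM in saline and 6.80, 6.11, 2.07 and 6.0 CPM in METH (1.13 ± 0.41 SE), with METH replicate 3 alone at the saline level. The OCR of ZNF423, another zinc finger factor, did not overlap between groups, with 6.48, 6.85, 5.36 and 6.08 CPM in saline and 2.32, 3.36, 4.43 and 3.62 CPM in METH (-0.85 ± 0.32 SE). NAB2, a corepressor of the early growth response factors, stood at -0.74, RORA, a nuclear receptor, at -1.08 and TSHZ2 at 0.09.

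Genes of Hedgehog signalling and neural progenitors, a pathway of stem cells in the adult DG, had a median of 0.05 over 13 OCRs, with 1 less and 0 more accessible at an unadjusted p under 0.05. That OCR was paired with SUFU, an inhibitor of the pathway, with 1.33, 1.10, 3.19 and 1.25 CPM in saline and 0.77, 0.77, 0.98 and 0.48 CPM in METH. Its log2 fold change was -1.17 ± 0.41 (SE), and -0.70 without saline replicate 3, which had the highest value. No peak was called at this OCR in any DG library. PTCH1, the Hedgehog receptor, had 4 OCRs, 1 at -0.44 and the other 3, in the highest quintile of level, at 0.13, 0.22 and 0.15. CDON, a co-receptor, stood at -0.99, VCAN, a matrix proteoglycan, at 0.51 and TEAD1, a factor of the Hippo pathway, at -0.03. The sign of the list's median depended on single libraries, with -0.10 without METH replicate 4 and 0.13 without METH replicate 3.

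**Figure D5:**
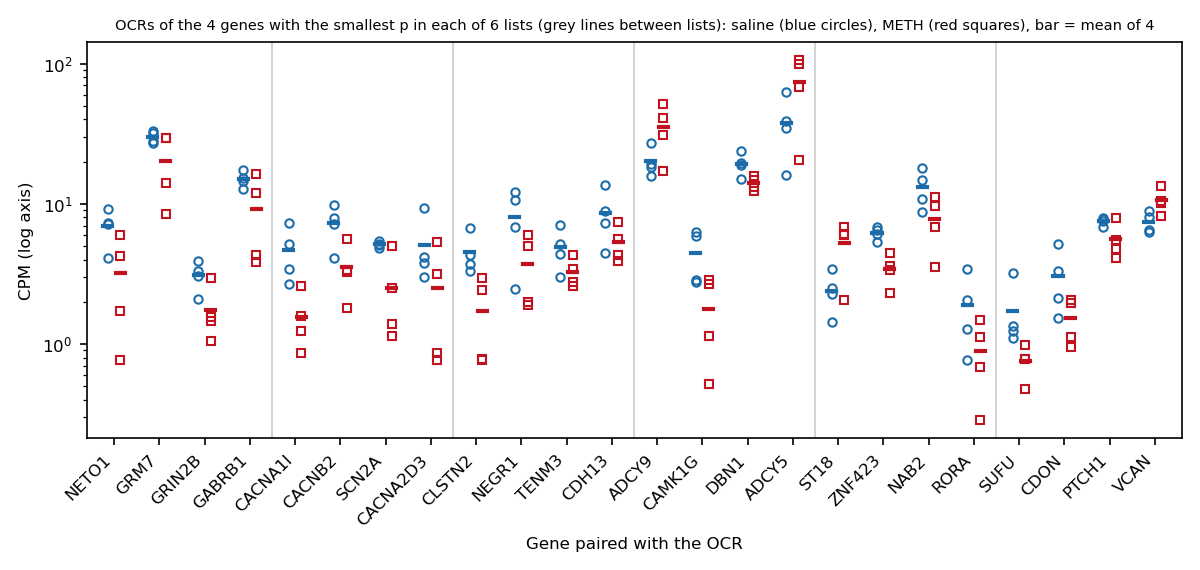
CPM on a log axis of the OCRs of the 4 genes with the smallest p in each of 6 gene lists, in 4 saline (blue circles) and 4 METH (red squares) libraries, with bars at the means. For SCN2A the METH libraries spread from 1.14 to 5.02 CPM beside 4.83 to 5.46 CPM in saline, and for ADCY5 from 20.4 to 105.4 CPM.

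The CA, which the DG projects to, was the most similar region and was set beside it. The difference of the METH effect, DG minus CA, was taken as an interaction term of that edgeR model, and 0 OCRs passed the DAR rule, with a lowest FDR of 0.547. At an unadjusted p under 0.05, 8.48% of OCRs differed, 4451 with a lower and 3876 with a higher effect in DG. The median log2 fold change of METH in CA was 0.14 in the lowest quintile of level and -0.03 in the highest, compared with -0.46 and 0.16 in DG. In the lowest quintile 5.42% of OCRs had a lower and 1.20% a higher effect in DG at this threshold, and in the highest 2.46% and 6.57%, beside 4.53% and 3.95% of all OCRs. The fourth quintile of CA minus NAc stood out with 11.2% higher and 2.97% lower in DG; this class was set with CA saline libraries, which enter the CA effect. Without METH replicate 1 of the DG the OCRs with a lower effect numbered 2191, and without METH replicate 3 they numbered 14174.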

How the data were processed

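ATAC-seq libraries were made by the authors from frozen tissue and processed with AIAP at default parameters on rn6. Peaks were called in each library, and OCRs were merged from them with bedtools, as the labels name both build and tool. For the counter, no name is given in the sources used here. Raw counts, without normalization, were deposited. The deposited peak lists give for each peak a fold enrichment and −log10 p and q values, as the peak caller wrote them.

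From these, edgeR 4.0.16 in R 4.3.3 was run on the counts of all 29 libraries in 8 groups, with upper-quartile scaling, trended dispersion and a robust quasi-likelihood F test (21 residual degrees of freedom). All 98237 OCRs passed filterByExpr. log2 CPM used a prior count of 2. Peaks were overlapped with OCRs by at least 1 bp (bedtools 2.31.1). Library values were compared by exact permutation tests. OCR starts are printed 1-based. OCR classes were described by counts and medians, with no test. On data simulated for this comparison over 98237 OCRs, 18 of 100 OCRs changed 4-fold and 0 of 100 changed 2-fold were called, beside 0 unchanged OCRs. Each OCR was drawn independently, with no deviation shared across the OCRs of a library. Libraries with the same replicate number were from different animals by the peak names, and their deviations correlated at -0.25, 0.14, 0.26 and -0.26, so that numbers were not taken as pairs.

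Named OCRs were the 5 in each direction with the smallest p among OCRs of at least 1 CPM with groups that did not overlap; the 2 largest in each direction with a peak in 4 against 0 libraries; the highest OCR of each width class; and, for each gene list, the OCRs of the 4 genes with the smallest p and the one with the smallest change. The members, classes and gene lists were chosen with earlier results of these data known. Alternatives were other scalings (TMM, DESeq2 size factors, total counts, loess offsets), DESeq2 1.42.0, a minimum of 1 CPM, 1 or 5 RUVr factors, the 8 DG libraries alone with and without the tag set or the replicate number, each set alone, peaks of −log10 q above 5, and leaving out each DG library.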

Additional observations from a re-analysis of the deposited data

Results flagged for a closer look

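Among 122 groups of 4 library values or of CPM of a named OCR, 4 held a library whose gap to its nearest neighbour exceeded Dixon's critical value. Chance flags about 1 in 20 such groups. Saline replicate 2 had 498 OCRs with a count of 0, compared with 53 to 95 in the other saline libraries and 394 and 408 in METH replicates 1 and 4. Saline replicate 1 had 23.3 CPM at chr16:4977757-4978653, the named OCR with the smallest p, beside 10.0 to 11.6 CPM in the other saline libraries. At the OCR of ST18, METH replicate 3 had 2.07 CPM, beside 6.0 to 6.80 CPM in the other METH libraries and 1.43 to 3.40 CPM in saline. At the OCR of SUFU, saline replicate 3 had 3.19 CPM, beside 1.10 to 1.33 CPM in the others.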

How the results depend on the processing

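No DAR was called under any alternative tried except 5 RUVr factors, with 4586. The OCRs at an unadjusted p under 0.05, 6167 less and 3504 more accessible as reported, numbered 16978 and 9994 with 1 RUVr factor, 24196 and 14220 with 5, 3616 and 10242 with DESeq2 size factors, 3596 and 6922 with loess offsets, and 3162 and 1695 in a fit of the DG libraries alone. The more accessible OCRs numbered 11508 with DESeq2's Wald test and 6733 with TMM. In the DG libraries alone, the set of the name tag as a covariate gave 2796 less and 2617 more accessible OCRs. With the 21 libraries from outside the DG kept in the fit, the first set alone gave 4004 less and 1106 more. The second gave 3475 and 739. The replicate block, fitted in the DG libraries alone, gave 3020 and 1636 with 0 DARs, and same-numbered libraries were not pairs. Leaving out single libraries gave 2378 to 19400 less and 932 to 11250 more accessible OCRs, the highest of both without METH replicate 3. Without saline replicate 2 they were 7886 and 9098, so that the balance turned.

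The median of all OCRs was -0.0059 with DESeq2's Wald test, -0.0057 with its size factors, and -0.30 to -0.065 without single libraries. For OCRs under 400 bp it was 0.028 and 0.029 with the same tools, 0.17 with loess offsets, -0.22 with total counts, and -0.20 to -0.028 without single libraries. With 10 or more neighbours it was 0.022, 0.023, -0.068 with TMM, -0.078 in the first set, -0.011 with loess offsets, -0.23 with total counts, 0.030 with a 10 kb window, and -0.20 to -0.052 without single libraries. With that window, METH minus saline was -0.00021 percentage points for the share of counts in the densest class and 0.047 for that in isolated OCRs, both with the sign turned, and the former was -0.20 to 0.69 with the 50 kb window without single libraries. The difference in peak-covered length lay between -3.42 and 0.38 Mb without single libraries. OCRs with a peak in at least 3 libraries of one group and at most 1 of the other numbered 5213 and 3179. This alternative was chosen after seeing the data. With TMM, 6136 OCRs had a higher effect in DG than in CA; without single libraries 2191 to 14174 were lower and 1052 to 10331 higher. Of 47 named OCRs, only chr1:11909095-11912509 turned sign from an estimate at least as large as its SE, to -0.031 with loess offsets. Others, with estimates smaller than their SE, turned sign as well. The second OCR of GABRB1, for example, ran from -0.60 to 0.11 without single libraries. With 5 RUVr factors, the only setting with DARs, 21 of the named OCRs passed the DAR rule. The cause of these changes was not tested.

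With 4 libraries a group, power was limited in the simulation: of OCRs changed 4-fold, 18 of 100 were called, and of those changed 2-fold, 0 of 100. The simulation held no deviation shared across the OCRs of a library, so these shares do not measure power in the real libraries. CPM in the lowest quintile rested on a median of 9 to 31 counts per OCR and library.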
